A study of Mus musculus with 2 samples.

Results

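The cells described here are 133 dendritic cells that showed few transcripts of the mature state, taken from 2 single-cell RNA libraries of subcutaneous mouse tumours. A cell entered when it had at least 500 unique molecular identifiers (UMIs, each standing for 1 captured transcript molecule), at least 200 genes, at most 20% mitochondrial UMIs and under 5 UMIs of Cdkn2a per 10000. It also had at least 80 summed UMIs per 10000 of the MHC class II genes Cd74, H2-Aa, H2-Ab1 and H2-Eb1, and at least 2 summed UMIs of the dendritic markers Flt3, Zbtb46, Xcr1, Clec9a and Cd209a. It had under 10 summed UMIs per 10000 of the complement genes C1qa, C1qb and C1qc, which mark macrophages, and under 4 summed UMIs of the mature genes Ccr7, Fscn1, Ccl22 and Cacnb3. The UB library held 58 such cells among 13619 filtered cells and the CON library held 75 among 14353, so 133 of 27972 cells were chosen. The cells were thus chosen by the measured UMIs of these genes, whose levels are given below as a description only.

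UB tumours grew from MC38 cells, a mouse colon carcinoma line, with overexpression of UBD, and CON tumours grew from MC38 cells as the control. Both were subcutaneous tumours in mice, dissociated to single cells and loaded on a droplet 3′ RNA assay, and the labels name no treatment other than the overexpression. Host strain, age, sex, tumour age, the construct behind the overexpression and the number of mice behind each library were not given in the sources used here. UBD, also called FAT10 and written Ubd in mice, is a ubiquitin-like modifier known to be inducible by inflammatory cytokines. Each group was 1 library, so there was no test between UB and CON. Every interval below is a 95% interval that covers counting error only, and no difference could be set against a spread between tumours.

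Conventional dendritic cells capture antigen in tissues and present it to T cells. Type 1 cells depend on the transcription factors Irf8 and Batf3, carry the chemokine receptor Xcr1 and the dead-cell receptor Clec9a, and are known for presenting antigen taken up from dying tumour cells to CD8 T cells. Type 2 cells carry lectins such as Cd209a, Clec10a and Mgl2 and mostly prime CD4 T cells. Inflamed tumours also hold monocyte-derived cells that take on MHC class II and Cd209a while keeping monocyte genes such as Ly6c2 and the Fc receptor Fcgr1, which makes Cd209a by itself a weak mark of conventional descent.

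The library as a whole held 204267192 UMIs in UB and 173973178 in CON. Median UMIs per barcode were 12006.5 in UB and 4302 in CON before filtering, but the gated dendritic cells were sequenced to similar depth, with medians of 4903.5 UMIs and 1602 genes in UB and 4634 UMIs and 1536 genes in CON. Their summed UMIs were 314200 in UB and 394366 in CON. A doublet caller marked 562 UB cells (4.13%) and 766 CON cells (5.34%), of which 0 UB and 1 CON cell were among the gated dendritic cells. The libraries shared 71 barcodes, none of them a gated dendritic cell. Ubd itself gave 0 UMIs in the gated cells of either library, a count that allows up to 9.55 UMIs per 1000000 (CPM) in UB and 7.61 CPM in CON. In Cdkn2a-high cells it gave 190 UMIs (1.15 CPM) in UB and 43 UMIs (0.322 CPM) in CON, and in the endothelial gate 1 UMI (10.0 CPM) in UB and 39 UMIs (176 CPM) in CON.

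The label was checked against marker genes that the rule had not used, after dividing the cells by the rule's own markers. Cells with an Xcr1 or Clec9a UMI and none of Cd209a, the Xcr1/Clec9a side, numbered 23 in UB and 18 in CON. Cells with a Cd209a UMI and neither of the other markers, the Cd209a side, numbered 33 in UB and 50 in CON. A further 0 UB and 4 CON cells had both kinds of marker, and 2 UB and 3 CON cells had neither and entered through Flt3 or Zbtb46. Among T cells, which should lack these markers, Xcr1 and Clec9a gave no UMI in 432 UB and 459 CON cells, and Cd209a gave one in 1 UB cell and 1 CON cell, at median depths of 2618 UMIs in UB and 3252 UMIs in CON.

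The Xcr1/Clec9a side carried the type 1 programme in both libraries. Irf8, the lineage-defining factor, stood at 1339 CPM in UB and 899 CPM in CON on that side, against 83.3 CPM in UB and 65.9 CPM in CON on the Cd209a side. Naaa, a lysosomal amidase used as a type 1 marker, reached 856 CPM in UB and 711 CPM in CON there, and Wdfy4, which is needed for cross-presentation, reached 399 CPM in UB and 285 CPM in CON.

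The Cd209a side carried type 2 lectins together with monocyte genes. The lectins stood there with Mgl2 at 589.7 CPM in UB and 404 CPM in CON and Clec10a at 229 CPM in UB and 167 CPM in CON. The monocyte genes had different levels in the libraries on this side: Fcgr1 stood at 48.6 CPM in UB and 299 CPM in CON, and Ly6c2 at 20.8 CPM in UB and 615 CPM in CON. Flt3, the growth factor receptor of the conventional lineage, and Zbtb46, a transcription factor of that lineage, chose cells in part, so their counts describe the gate and test nothing. On the Cd209a side Flt3 had a UMI in 1 of 33 UB cells and 5 of 50 CON cells and Zbtb46 in 1 of 33 UB cells and 1 of 50 CON cells, and on the Xcr1/Clec9a side Flt3 had one in 13 of 23 UB cells and 10 of 18 CON cells and Zbtb46 in 3 of 23 UB cells and 1 of 18 CON cells. Ly6c2 was not confined to the Cd209a side. It had a UMI in 3 of 33 UB cells and 30 of 50 CON cells there. On the Xcr1/Clec9a side it had one in 4 of 23 UB cells and 10 of 18 CON cells. Fcgr1 had a UMI in 4 of 33 UB cells and 33 of 50 CON cells of the Cd209a side. On the Xcr1/Clec9a side Fcgr1 had one in 0 of 23 UB cells and 4 of 18 CON cells. Both sides are therefore called by their markers and not by a subset name, and the whole set is called gated dendritic cells.

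**Figure D1:**
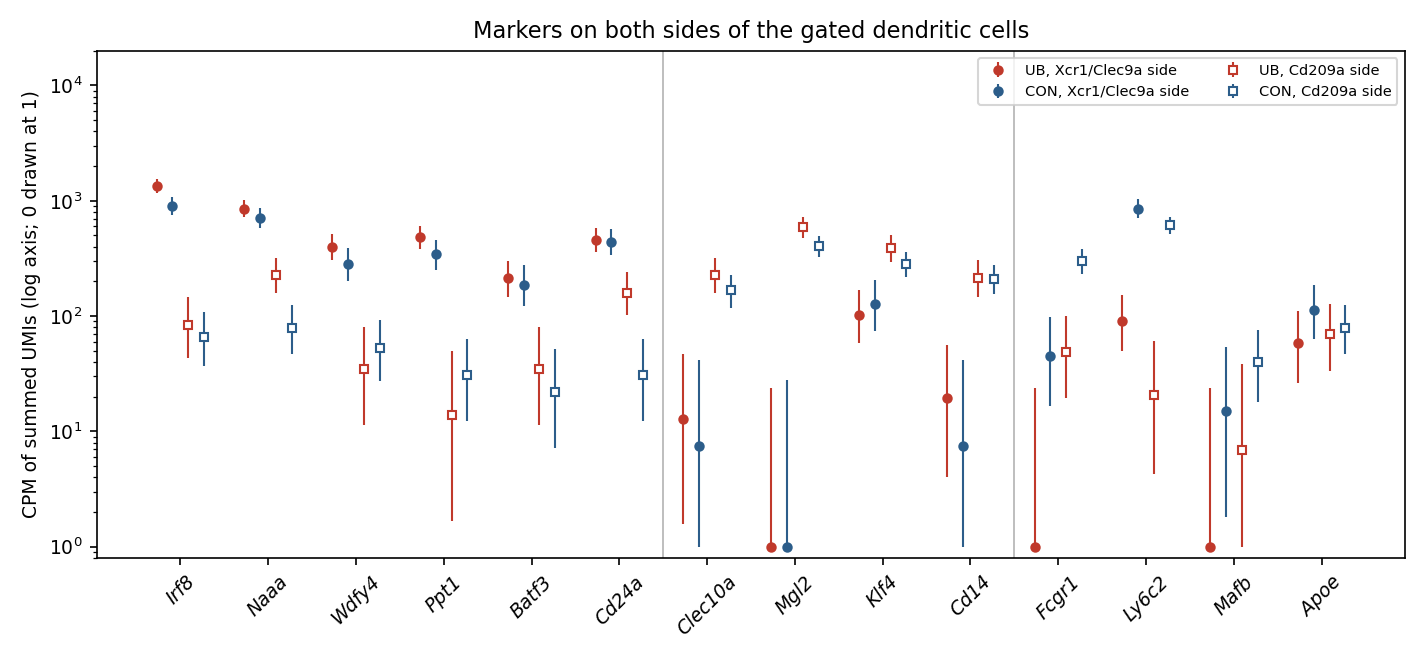
Levels of 14 genes that the rule did not use, in CPM of summed UMIs on a log axis, on the Xcr1/Clec9a side (filled circles) and the Cd209a side (open squares), UB in red and CON in blue. Bars are 95% counting intervals, and a level of 0 is drawn at 1; the first group of genes is type 1, the second type 2, and the third monocyte and macrophage genes, where CON stands above UB for Ly6c2 on both sides and for Fcgr1 on the Cd209a side.

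Ly6c2 and Fcgr1 were found in many gated cells of CON and few of UB. Ly6c2, a surface protein of inflammatory monocytes, gave 17 UMIs in 7 of 58 UB cells and 314 UMIs in 44 of 75 CON cells; reads of Ly6c2 and of its near-identical copy Ly6c1 may have been split in counting. After each cell was thinned to 2000 UMIs, 3 of 57 UB cells (5.26%) and 36 of 74 CON cells (48.6%) had a Ly6c2 UMI, and 2 of 57 UB cells (3.51%) and 31 of 74 CON cells (41.9%) had an Fcgr1 UMI. Ly6c2 was also lower in UB outside the gated cells. At the same thinned depth, 42.6% of UB T cells and 71.1% of CON T cells had a Ly6c2 UMI, and 1.27% of UB fibroblasts and 6.84% of CON fibroblasts did. Fcgr1 gave a UMI in 2.16% of UB T cells and 4.74% of CON T cells at that depth. It gave one in 0 of 394 UB fibroblasts and 19 of 453 CON fibroblasts (4.19%). Macrophage genes were low in both libraries: the macrophage markers together gave 223 CPM in UB and 256 CPM in CON, against 14396 CPM in UB and 14814 CPM in CON in MHC class II-high cells rich in C1q, and Trem2 gave 0 UMIs in UB and 1 in CON. Of 6 tested monocyte genes, 3 were at least 1.5-fold lower in UB, where 13.8% of all genes tested in the gated cells were. Beside Ly6c2 and Fcgr1, the other one was Plac8, at 983 CPM in UB and 2386 CPM in CON. The lysozyme gene Lyz2 stood at 824 CPM in UB and 872 CPM in CON. Because Ly6c2 and Fcgr1 moved with the library, the main results are also given below for the 46 UB and 16 CON gated cells without a UMI of either gene, an alternative chosen after the values were seen.

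The threshold on dendritic markers cut through a sparse distribution. Exactly 2 marker UMIs were found in 14 UB and 24 CON gated cells, and 1 UMI was found in 31 UB and 49 CON cells that met every other condition. Naaa stood at 351 CPM in UB and 370 CPM in CON just inside the threshold, and at 102 CPM in UB and 280 CPM in CON just outside it. Fcgr1 stood at 63.9 CPM in UB and 148 CPM in CON just inside the threshold. In cells with no dendritic marker UMI it reached 189.6 CPM in UB and 467 CPM in CON. Over all gated cells it had 25.5 CPM in UB and 198 CPM in CON. Within the CON gate, Fcgr1 thus did not fall with more marker UMIs.

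The share of gated dendritic cells depended on what they were counted against. They made up 0.426% of all filtered UB cells (0.324 to 0.550) and 0.523% of all filtered CON cells (0.411 to 0.655), a difference of −0.0967 percentage points whose interval, −0.260 to 0.0663, included 0. Without the cells carrying Ly6c2 or Fcgr1 the difference had the opposite sign, 0.226 points, with shares of 0.338% in UB and 0.111% in CON. Both genes had been seen in more CON than UB cells before this choice, which took out mostly CON cells. The change of sign follows from that choice and is not a separate result on the share. Among cells with a Ptprc UMI, the pan-leukocyte gene also called CD45, they made up 48 of 3530 in UB (1.36%) and 51 of 5734 in CON (0.889%), a difference of 0.470 points (0.0368 to 0.957). Among cells at the MHC class II limit the shares were 4.61% in UB and 5.43% in CON, and the interval of their difference of −0.813 points, −2.49 to 0.878, again included 0. The denominators differed between the libraries, with 4950 Cdkn2a-low cells in UB and 7596 in CON. Among these the shares were 1.17% in UB and 0.987% in CON, and the interval of their difference of 0.184 points, −0.178 to 0.578, included 0.

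Within the gated cells, the Xcr1/Clec9a side took 23 of 58 cells in UB (39.7%, 27.0 to 53.4) and 18 of 75 in CON (24.0%, 14.9 to 35.3). The difference of 15.7 points had an interval of −0.155 to 30.9, so at this number of cells it could not be told from counting error. Thinned to 2000 UMIs, the shares were 28.1% in UB and 14.9% in CON, with a difference of 13.2 points (−0.807 to 27.5). Without the cells carrying Ly6c2 or Fcgr1, the difference was 3.80 points.

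Xcr1/Clec9a-side and Cd209a-side cells were compared within each library, so that the second library repeats the first. A gene counts as tested when its UMIs summed over the cells compared reached 50. Of 1618 genes tested, 54 (3.34%) were at least 2-fold higher on the Xcr1/Clec9a side in both libraries and 115 (7.11%) were at least 2-fold lower in both. Plet1, a surface glycoprotein of some dendritic cells, stood at 341 CPM on the Xcr1/Clec9a side and 0 on the Cd209a side in UB, and at 322 CPM and 4.39 CPM on those sides in CON. Cst3, the cysteine protease inhibitor cystatin C, was 6.25-fold higher on the Xcr1/Clec9a side in UB and 6.36-fold higher in CON, Ppt1, a lysosomal thioesterase, 34.8-fold higher in UB and 11.2-fold higher in CON, and Batf3 6.13-fold higher in UB and 8.52-fold higher in CON. Of the 11 tested type 1 genes, 9 were at least 2-fold higher in both libraries, with a median log2 difference of 2.54 in UB and 3.09 in CON, against −0.05 and 0.07 over all genes tested.

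On the Cd209a side, genes of the type 2 and monocyte-related programme were higher. S100a4, a calcium-binding protein of motile myeloid cells, stood at 135 CPM on the Xcr1/Clec9a side and 2872 CPM on the Cd209a side in UB, and at 142 CPM and 4478 CPM on those sides in CON. Ifitm1, an interferon-inducible membrane protein, followed the same order, with 51.5 CPM and 1630.4 CPM in UB and 195 CPM and 6016 CPM in CON, and both levels were lower in UB. The chemokine Ccl9 stood at 6.44 CPM and 569 CPM in UB, and at 7.49 CPM and 233 CPM in CON. Of the 11 tested type 2 genes, 10 were at least 2-fold lower on the Xcr1/Clec9a side in both libraries, with a median of −3.43 in UB and −3.85 in CON, as were 5 of 5 lectin and uptake receptor genes.

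Between the libraries, 1719 genes reached 50 summed UMIs in the gated cells. Of these, 238 (13.8%) were at least 1.5-fold lower in UB and 145 (8.44%) at least 1.5-fold higher, with a median log2 ratio of UB over CON of 0.01. A rule of size picked the 12 genes furthest in each direction among those that met its limits. These were 50 or more CPM, a counting interval that excluded a ratio of 1, and at least 20% of the highest level in any other gate. The last limit left out some genes with larger ratios, among them Rsad2, described below. Of the 12 lower in UB, 6 belonged to the list of type I interferon response genes and 2 others to the list of interferon gamma response genes. Of the 12 higher in UB, 3 belonged to the list of G2/M genes, which are transcribed as cells divide, and 4 were histone genes.

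**Figure D2:**
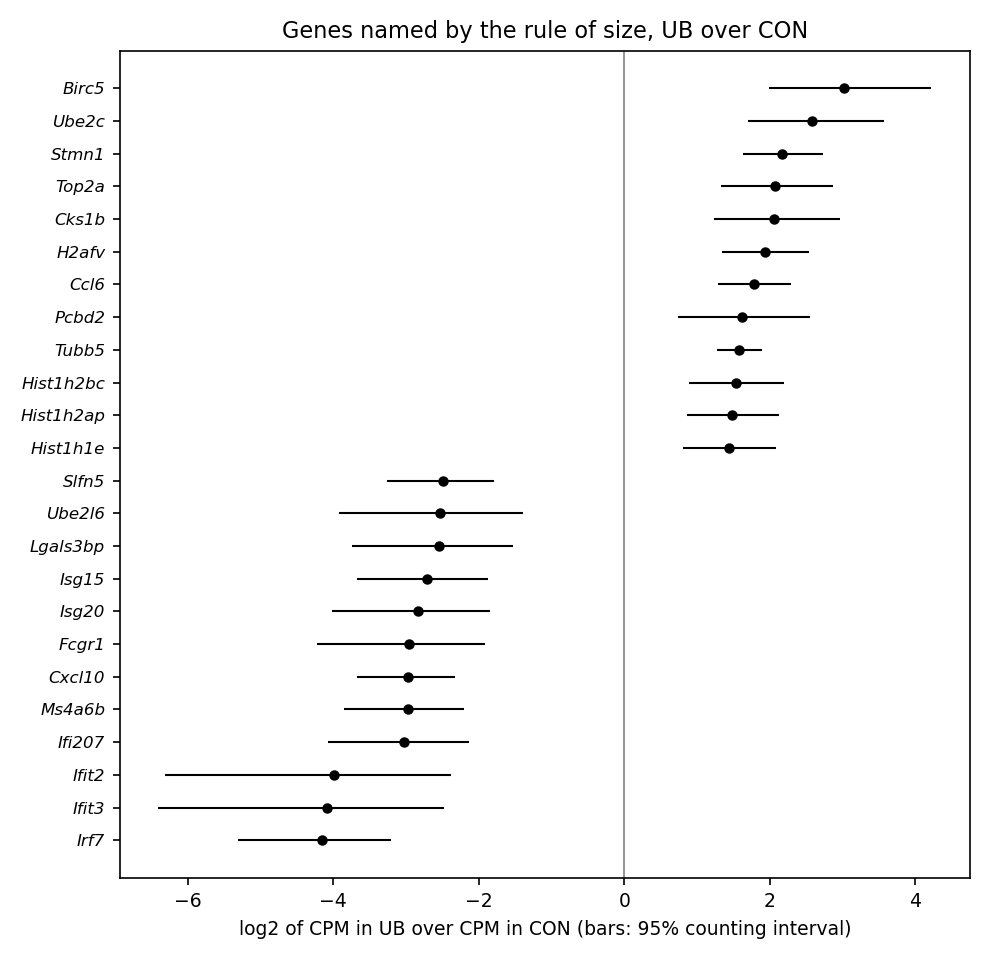
The 12 genes furthest in each direction between UB and CON gated dendritic cells by the rule of size, as the log2 ratio of summed CPM in UB over CON with its 95% counting interval. Birc5, Ube2c and Stmn1 lie furthest to the right (higher in UB) and Irf7, Ifit3 and Ifit2 furthest to the left (lower in UB), and no interval reaches 0.

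Type I interferon is sensed through a receptor whose signal acts on interferon-stimulated response elements, DNA motifs upstream of antiviral genes. Irf7 then amplifies interferon production, the Ifit proteins and Rsad2 block viral replication, and Isg15 is a ubiquitin-like modifier. Interferon sensing by type 1 dendritic cells is known for its part in T cell priming against tumours in mice. To show the motif, the 300 bases around the start of a few of these genes (250 before and 50 after, RefSeq, build GRCm38.p6) are printed 5′ to 3′ on the gene's strand in lower case, with every match to the response element, read as GAAA, any 2 bases and again GAAA on either strand, in capitals. Ifit3, on the plus strand at chr19:34583279-34583578, and Isg15, on the minus strand at chr4:156200769-156201068, are shown because they were among the genes lowest in UB and hold several matches; those of Isg15 overlap. Slfn5, on the plus strand at chr11:82951852-82952151, holds 1 match, and Irf7, on the minus strand at chr7:141266375-141266674, holds none.
Ifit3: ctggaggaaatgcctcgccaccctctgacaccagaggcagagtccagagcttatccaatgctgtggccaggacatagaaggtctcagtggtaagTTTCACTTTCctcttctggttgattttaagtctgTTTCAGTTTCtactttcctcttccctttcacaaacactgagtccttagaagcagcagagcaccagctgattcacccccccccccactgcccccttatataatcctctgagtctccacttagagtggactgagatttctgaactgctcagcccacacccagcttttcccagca
Isg15: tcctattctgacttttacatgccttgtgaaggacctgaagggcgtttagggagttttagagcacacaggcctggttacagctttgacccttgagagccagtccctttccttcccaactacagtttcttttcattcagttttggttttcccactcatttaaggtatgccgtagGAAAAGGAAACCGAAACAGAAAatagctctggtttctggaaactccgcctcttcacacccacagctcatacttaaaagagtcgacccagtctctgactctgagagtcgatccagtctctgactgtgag
Slfn5: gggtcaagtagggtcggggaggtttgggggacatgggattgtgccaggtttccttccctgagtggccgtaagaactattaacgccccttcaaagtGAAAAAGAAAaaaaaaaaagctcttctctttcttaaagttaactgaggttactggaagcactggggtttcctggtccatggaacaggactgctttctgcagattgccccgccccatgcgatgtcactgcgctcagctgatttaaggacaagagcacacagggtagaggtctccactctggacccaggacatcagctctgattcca
Irf7: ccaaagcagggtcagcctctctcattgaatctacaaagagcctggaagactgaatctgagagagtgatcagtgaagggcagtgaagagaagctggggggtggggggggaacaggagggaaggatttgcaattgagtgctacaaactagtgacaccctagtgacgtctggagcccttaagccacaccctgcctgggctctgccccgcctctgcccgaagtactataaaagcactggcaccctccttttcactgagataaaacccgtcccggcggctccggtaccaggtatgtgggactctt

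Of the 13 tested genes of the type I interferon list, 11 had a promoter in the table, and 7 of these (63.6%) held the motif in the window. The share was 1079 of 27025 (3.99%) over all genes with a promoter in the table and 81 of 1351 (5.996%) over the genes tested in the gated cells. A match is a string of letters in a window and does not show binding.

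Every tested gene of the type I interferon list was lower in UB. The 13 genes had log2 ratios of UB over CON between −4.24 and −1.12, with a median of −2.49, against 0.01 over all genes tested. All 13 were past 1.5-fold, where 13.8% of all genes were. Counting every list gene with any UMI, whatever its depth, 29 of 29 had the lower CPM in UB. Summed over the list, the gated cells held 3380 CPM in UB and 11329.6 CPM in CON, most of it Ifitm3, which restricts virus entry and gave 2562 CPM in UB and 6646 CPM in CON. The summed level was 1468 CPM in UB and 6020 CPM in CON on the Xcr1/Clec9a side and 5398 CPM in UB and 14757 CPM in CON on the Cd209a side.

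Irf7 (chr7:141262706-141266481, minus strand, GRCm38 with GENCODE vM21) had the lowest ratio among the genes named by the rule of size. It gave 9 UMIs in 9 of 58 UB cells (28.6 CPM) and 201 UMIs in 62 of 75 CON cells (509.7 CPM), so it was 17.8-fold (9.19 to 39.5) lower in UB. On the Xcr1/Clec9a side, 5 of 23 UB cells and 18 of 18 CON cells had an Irf7 UMI, and at 2000 UMIs per cell these were 2 of 23 UB cells and 10 of 18 CON cells. The antiviral genes Ifit3, Ifit2 and Rsad2 each gave 3 UMIs in UB, against 64, 60 and 71 UMIs in CON. That put Ifit3 17.0-fold (5.56 to 84.6) lower in UB and Rsad2 18.9-fold (6.20 to 93.6) lower in UB.

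The other genes of the list followed at smaller ratios. Isg15 had 41.4 CPM in UB and 271 CPM in CON, with 53.8% of its UB UMIs in 1 cell. Isg20, an antiviral exonuclease, had 28.6 CPM in UB and 205 CPM in CON. Slfn5, a Schlafen family gene, had 60.5 CPM in UB and 339.8 CPM in CON. Over the whole set Isg15, Isg20 and Slfn5 were lower in UB by 6.56-fold (3.68 to 12.7), 7.17-fold (3.60 to 16.2) and 5.62-fold (3.46 to 9.62). All of them had the lower CPM in UB on both sides. On the Xcr1/Clec9a side Isg20 gave 2 UB and 5 CON UMIs, and the interval of its ratio, 0.0328-fold to 2.10-fold, included 1. Bst2, which tethers budding virions, had 194 CPM in UB and 910.3 CPM in CON. Zbp1, a nucleic acid sensor, had 76.4 CPM in UB and 322 CPM in CON. Bst2 was 4.69-fold (3.57 to 6.26) lower in UB and Zbp1 4.22-fold (2.71 to 6.82) lower in UB.

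Further genes named by the rule of size belonged to the same direction without being on the list. Ifi207, an interferon-inducible gene of the Ifi200 family, had 35.0 CPM in UB and 287 CPM in CON. Cxcl10, the interferon-inducible chemokine that draws T cells, had 70.0 CPM in UB and 548 CPM in CON, with 45.5% of its UB UMIs in 1 cell. The rest had the lower CPM in UB on both sides. Lgals3bp, a secreted galectin-binding protein, had 28.6 CPM in UB and 167 CPM in CON. Ube2l6, the enzyme that conjugates Isg15, had 22.3 CPM in UB and 129 CPM in CON. Ms4a6b, a membrane protein of immune cells, had 47.7 CPM in UB and 375 CPM in CON, and Fcgr1 had 25.5 CPM in UB and 198 CPM in CON. On the Xcr1/Clec9a side Ms4a6b gave 4 UB and 8 CON UMIs, and the interval of its ratio, 0.0948-fold to 1.61-fold, included 1. Fcgr1 gave 0 UB and 6 CON UMIs there. Among the 12 named genes lower in UB, Cxcl10 alone had the higher CPM in UB on the Xcr1/Clec9a side. Of the 20 genes of the interferon gamma list with any UMI, 16 had the lower CPM in UB. Of its 3 tested genes, Cxcl10 and Fcgr1 were past 1.5-fold lower, where 13.8% of all genes were. By side, 12 of 20 genes had the lower CPM in UB on the Xcr1/Clec9a side, where the list summed to 663 CPM in UB and 479 CPM in CON, and 16 of 19 did on the Cd209a side, where it summed to 423 CPM in UB and 2026 CPM in CON.

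Cell by cell, the type I interferon list separated the libraries on both sides, with overlap. On the Xcr1/Clec9a side its summed UMIs per 10000 had a lowest value of 3.15, a median of 10.4 and a highest of 48.3 in UB, and a lowest of 16.9, a median of 56.1 and a highest of 152 in CON. On the Cd209a side the lowest, median and highest values were 9.23, 59.0 and 159 in UB and 20.3, 162 and 342 in CON. The UB cells of the Cd209a side therefore had a median close to that of the CON cells of the Xcr1/Clec9a side. These sums are weighted to Ifitm3, so they do not give the size of the difference between sides for most list genes. Gene by gene, the median log2 ratio of the Xcr1/Clec9a side over the Cd209a side was −0.11 in UB and −0.95 in CON. Of the 13 list genes tested between sides, 2 were at least 2-fold lower in both libraries and 0 higher. At 2000 UMIs per cell, 12 of 23 UB cells (52.2%) and 17 of 18 CON cells (94.4%) of the Xcr1/Clec9a side had at least 3 UMIs of the list, a difference of −42.3 points (−62.0 to −14.8). On the Cd209a side nearly every cell passed that mark, 31 of 32 in UB and 49 of 49 in CON.

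**Figure D3:**
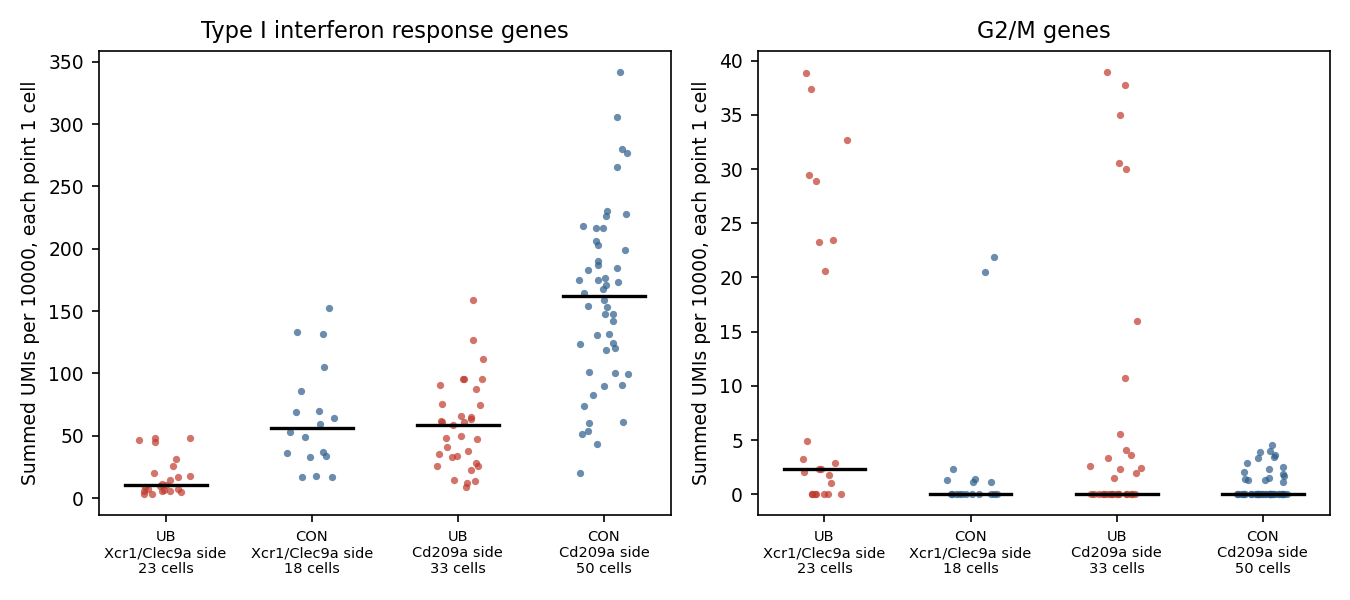
Summed UMIs per 10000 of the type I interferon list (left) and the G2/M list (right), 1 point a cell, on each side of the gated dendritic cells, UB in red and CON in blue; black bars are medians. The interferon medians are 10.4 in UB against 56.1 in CON on the Xcr1/Clec9a side and 59.0 in UB against 162 in CON on the Cd209a side, and G2/M values above the range of most cells appear mainly in UB.

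The difference in interferon genes was present without the cells that carried Ly6c2 or Fcgr1. In the 46 UB and 16 CON remaining cells, the summed list gave 3158 CPM in UB and 8060 CPM in CON, and 28 of 29 genes had the lower CPM in UB. Irf7 had a log2 ratio of −3.80 there and Cxcl10 one of −0.88. The same list was lower in UB in the other gates. Over the same 13 genes, the median log2 ratio was −2.74 in mature dendritic cells, −2.99 in C1q-rich MHC class II-high cells, −2.12 in monocyte-gated cells, −1.82 in T cells, −1.48 in fibroblasts and −2.29 in Cdkn2a-high cells. In plasmacytoid dendritic cells, where 6 of the genes could be read, it was −0.96. In natural killer cells 9 of 12 readable genes were lower. The part of free RNA in these values was not tested.

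The clearest difference in the other direction lay in genes of cell division. All 3 tested genes of the G2/M list were past 1.5-fold higher in UB, where 8.44% of all genes were, with a median log2 ratio of 2.58. Of the 21 list genes with any UMI, 21 had the higher CPM in UB. Birc5, the mitotic protein survivin, encoded at chr11:117849251-117855743 on the plus strand (GRCm38), gave 58 UMIs (185 CPM) in UB and 9 UMIs (22.8 CPM) in CON, a ratio of 8.09-fold (3.98 to 18.6). Ube2c, the ubiquitin-conjugating enzyme of mitotic exit, had 197 CPM in UB and 33.0 CPM in CON, a ratio of 5.99-fold (3.26 to 11.9). Top2a, the topoisomerase of dividing cells, had 213 CPM in UB and 50.7 CPM in CON, a ratio of 4.20-fold (2.52 to 7.32), and 1 cell held 44.4% of the CON UMIs of Birc5, 53.8% of those of Ube2c and 35% of those of Top2a.

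The other genes higher in UB that were named by the rule of size had ratios from 2.71-fold to 4.48-fold. Stmn1, which destabilises microtubules, had 420.1 CPM in UB and 93.8 CPM in CON. Cks1b, a subunit of cyclin-dependent kinases, had 169 CPM in UB and 40.6 CPM in CON. Tubb5, a beta tubulin, had 955 CPM in UB and 319.5 CPM in CON. The histone genes H2afv, Hist1h2bc, Hist1h2ap and Hist1h1e also lay in this range. Since Hist1 genes have close copies in their cluster, their reads may have been shared or dropped in counting. H2afv had a UMI in 37 UB and 19 CON cells and Hist1h2bc in 23 UB and 24 CON cells. Those are more cells than the 18 UB and 3 CON cells with at least 3 G2/M UMIs, so H2afv and Hist1h2bc are not read as division genes. On the Cd209a side Hist1h2bc gave 21 UB and 20 CON UMIs, and the interval of its ratio, 0.855-fold to 3.22-fold, included 1. Pcbd2, a metabolic dehydratase and transcriptional cofactor, had 124 CPM in UB and 40.6 CPM in CON. The chemokine Ccl6 had 417 CPM in UB and 122 CPM in CON, nearly all of it on the Cd209a side, where it had 853 CPM in UB and 189 CPM in CON.

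The division genes were concentrated in some cells. At least 3 UMIs of the G2/M list were found in 18 of 58 UB cells (31.0%, 19.5 to 44.5) and 3 of 75 CON cells (4%, 0.833 to 11.2), a difference of 27.0 points (14.4 to 40.1). At 2000 UMIs per cell these were 15 of 57 (26.3%) in UB and 1 of 74 (1.35%) in CON, a difference of 24.96 points (13.6 to 37.7). Both sides had the same direction: at that depth 8 of 23 UB cells (34.8%) and 1 of 18 CON cells (5.56%) on the Xcr1/Clec9a side, and 6 of 32 UB cells (18.8%) and 0 of 49 CON cells on the Cd209a side. Summed over its cells, the list gave 1320 CPM in UB and 434 CPM in CON on the first side and 957 CPM in UB and 96.7 CPM in CON on the second. A count of 0 in 49 cells allows a share of up to 6.12%. Genes of the G1/S list pointed the same way, with 18 of 20 at the higher CPM in UB, though only Dut, which keeps uracil out of DNA, could be tested, at 124 CPM in UB and 65.9 CPM in CON.

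Neighbouring gates put a scale on this. At 2000 UMIs per cell, at least 3 G2/M UMIs were found in 0 of 27 UB and 1 of 73 CON mature dendritic cells and in 0 of 15 UB and 0 of 27 CON plasmacytoid cells. Those counts, free RNA included, are the level in other dendritic cells of the same libraries. A count of 0 allows up to 11.1% of 27 and 20% of 15 cells. In C1q-rich MHC class II-high cells they were found in 12.1% of UB and 5.10% of CON cells, in monocyte-gated cells in 6.88% of UB and 3.46% of CON cells, and in T cells in 19.8% of UB and 14.5% of CON cells. In Cdkn2a-high cells, the median log2 ratio of the 3 genes was −0.25. Without the cells carrying Ly6c2 or Fcgr1, the G2/M list gave 1306 CPM in UB and 374 CPM in CON, and 20 of 21 genes had the higher CPM in UB. T cell markers stood beside this result at 223 CPM in UB and 78.6 CPM in CON, with at least 2 such UMIs in 4 UB and 3 CON gated cells. On the Cd209a side they gave 39 UMIs (271 CPM) in UB and 2 UMIs (8.79 CPM) in CON, with the higher CPM in UB for 6 of 6 genes. On the Xcr1/Clec9a side they gave 31 UMIs (199.6 CPM) in UB and 29 UMIs (217 CPM) in CON. Gated cells without a Ly6c2 or Fcgr1 UMI held 0 T cell marker UMIs in both libraries, so all of these UMIs lay in cells with Ly6c2 or Fcgr1. Without the gated cells that carried 2 or more UMIs of other cell types' markers, the log2 ratio was 2.74 for Birc5, 1.95 for Ube2c and 1.52 for Top2a.

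**Figure D4:**
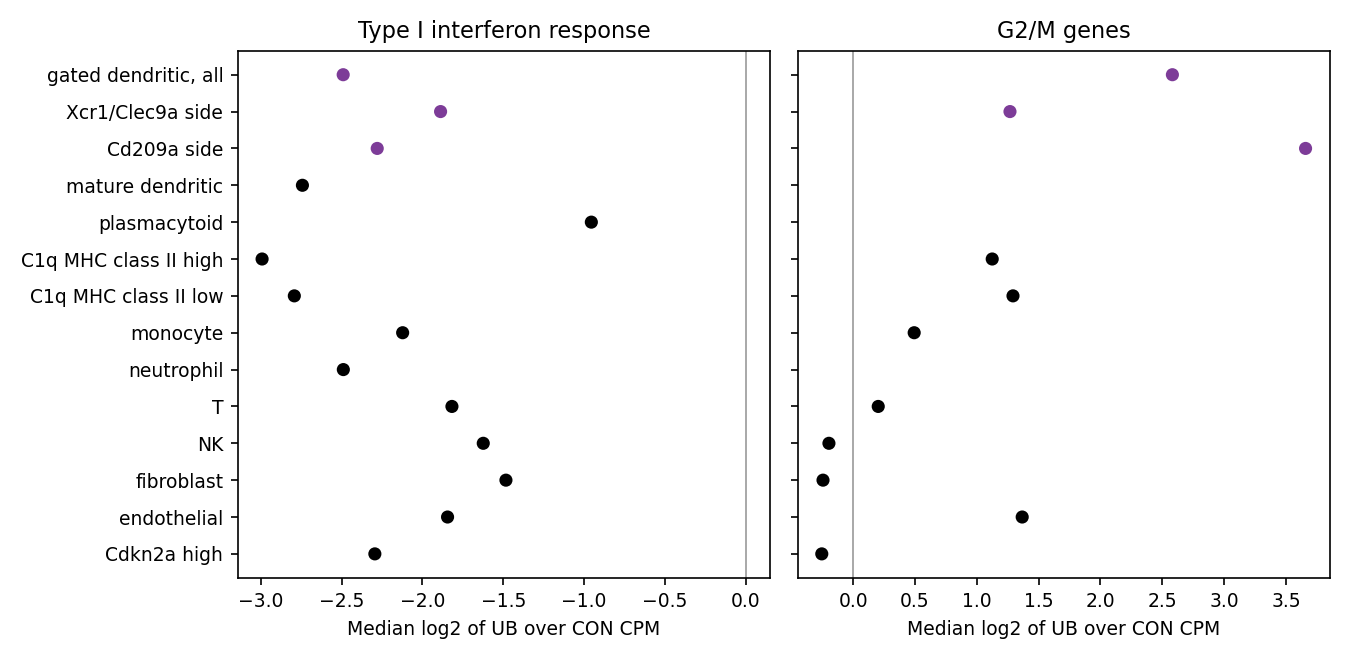
Median log2 ratio of UB over CON for the tested genes of the type I interferon list (left) and the G2/M list (right) in each gate, with the gated dendritic cells and their 2 sides in purple and all other gates in black; a gate with fewer than 3 readable genes has no point. The interferon medians lie below 0 in every gate shown, and the highest G2/M medians are 3.66 on the Cd209a side and 2.58 over all gated dendritic cells.

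Type 1 genes were higher in UB over the whole set and little different within the Xcr1/Clec9a side. Of 11 tested, 8 were at least 1.5-fold higher in UB, where 8.44% of all genes were, with a median log2 ratio of 0.78. Irf8 had 719 CPM in UB and 398 CPM in CON, Naaa 557 CPM in UB and 302 CPM in CON, and Batf3 130.5 CPM in UB and 76.1 CPM in CON. Within the Xcr1/Clec9a side the median was 0.23, and 0 of the 10 genes readable there were past 1.5-fold higher. Beside this stand that side's shares of 39.7% in UB and 24.0% in CON, whose part in the list's level was not tested. Without the cells carrying Ly6c2 or Fcgr1, the list summed to 3807 CPM in UB and 3816 CPM in CON, 13 of 23 genes had the higher CPM in UB, and the median log2 ratio of its 8 genes tested there was 0.30. The 2 type 1 genes lower in UB were Ifi205, itself an interferon-inducible gene, at 283 CPM in UB and 626 CPM in CON, and Rab7b, an endosomal GTPase, at 108 CPM in UB and 172 CPM in CON.

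Type 2 genes showed little shift. Of 12 tested, 3 were at least 1.5-fold lower in UB and 1 higher, where 13.8% and 8.44% of all genes were. The median was −0.35 over the set and 0.10 on the Cd209a side. S100a4 had 1423 CPM in UB and 2858 CPM in CON, and Cd300a, an inhibitory receptor, had 73.2 CPM in UB and 159.8 CPM in CON. Among dendritic transcription factors, Tcf4, the factor of plasmacytoid cells, had 15.9 CPM in UB and 134 CPM in CON. Tcf4 had a UMI in 5 of 58 UB and 24 of 75 CON gated cells, while 1 UB and 3 CON gated cells also met the plasmacytoid gate. It was not confined to plasmacytoid cells, with a UMI in 69.1% of UB and 64.7% of CON fibroblasts. All 3 tested growth factor receptors were at least 1.5-fold lower in UB, where 13.8% of all genes were. Csf2rb, the shared chain of the GM-CSF and IL-3 receptors, had 172 CPM in UB and 307 CPM in CON. Csf2ra had 98.7 CPM in UB and 152 CPM in CON.

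Of 17 class I presentation genes tested, 7 were at least 1.5-fold lower in UB, where 13.8% of all genes were, and 1 was higher, where 8.44% of all genes were, with a median log2 ratio of −0.42. The median was −0.29 on the Xcr1/Clec9a side and −0.72 on the Cd209a side. Psmb10, an immunoproteasome subunit, had 105 CPM in UB and 292 CPM in CON, and was 2.78-fold (1.87 to 4.22) lower in UB. B2m, the class I light chain, had 1264 CPM in UB and 2064 CPM in CON, and H2-T23, a nonclassical class I chain, had 134 CPM in UB and 299 CPM in CON. Class I heavy chain genes are close copies, so their separate levels are uncertain. The chaperone Pdia3 was the gene higher in UB, at 277 CPM in UB and 178 CPM in CON.

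Of the 8 tested class II processing genes, 2 were past 1.5-fold, both lower in UB, where 13.8% of all genes were. Ctss, the protease that trims the invariant chain, had 681 CPM in UB and 1174 CPM in CON. Lgmn, a lysosomal endopeptidase, had 63.7 CPM in UB and 106 CPM in CON. H2-DMa, which loads peptide, had 1082 CPM in UB and 768 CPM in CON, a ratio under the threshold. Of 10 tested cross-presentation genes, Wdfy4 was past the threshold in the higher direction and Cybb, the phagosomal oxidase subunit, in the lower, at 115 CPM in UB and 259 CPM in CON. Over all genes, 8.44% were past it higher and 13.8% lower. The class II genes of the rule had a median of 359 summed UMIs per 10000 in UB cells and 345 in CON cells.

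**Figure D5:**
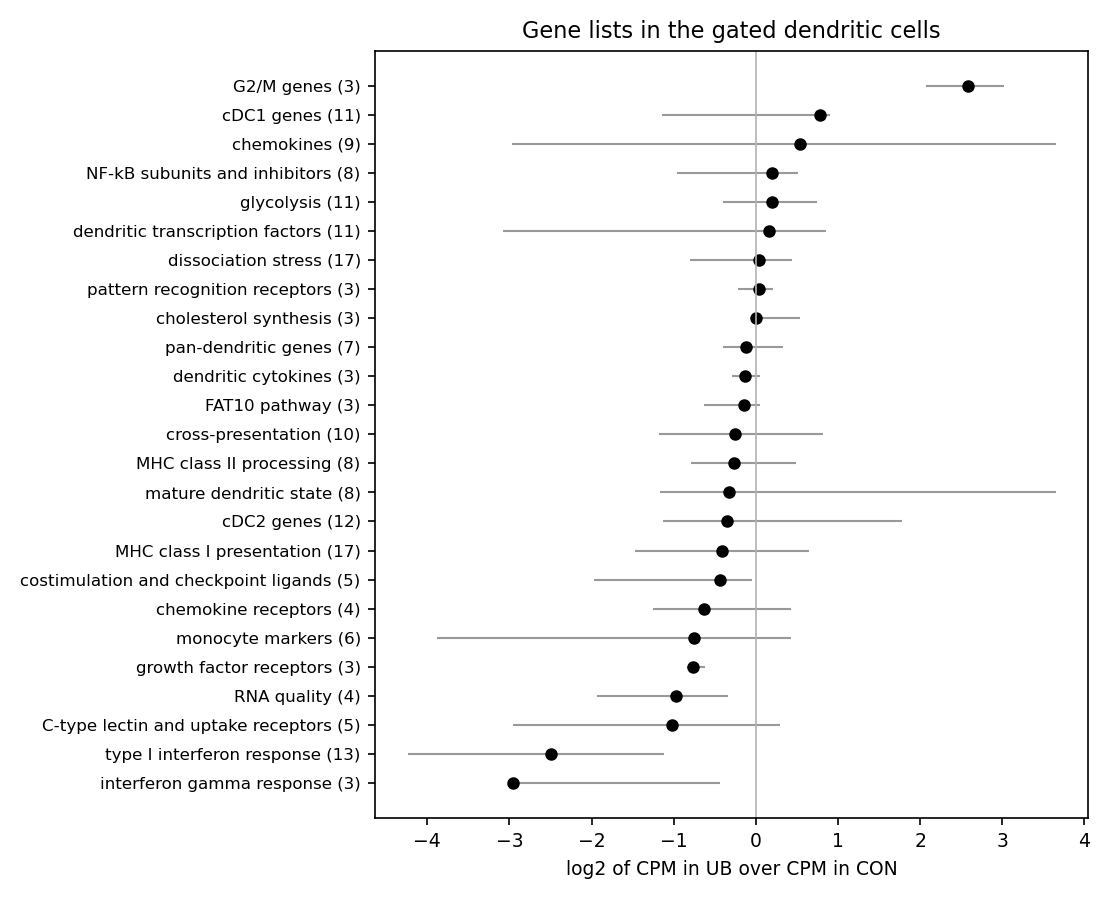
Median log2 ratio of UB over CON (points) and its lowest and highest gene (lines) for each gene list with at least 3 tested genes in the gated dendritic cells; the number of tested genes stands in brackets. The G2/M list has the highest median, 2.58, and the interferon gamma and type I interferon lists have the lowest, −2.96 over 3 genes and −2.49 over 13 genes.

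Signals between dendritic and T cells gave few readable genes. Of 5 tested costimulatory and checkpoint genes, Cd86, which engages CD28, had 124 CPM in UB and 259 CPM in CON, and Lgals9, galectin-9, had 38.2 CPM in UB and 149.6 CPM in CON. Both were past 1.5-fold lower in UB, where 13.8% of all genes were. Cd274, the checkpoint ligand PD-L1, had 63.7 CPM in UB and 86.2 CPM in CON, and Cd83, an activation marker, had 293 CPM in UB and 385 CPM in CON. Their ratios were under the threshold.

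Among chemokines, 4 of 9 tested were at least 1.5-fold higher in UB and 2 lower, where 8.44% and 13.8% of all genes were. Ccl9 had 264 CPM in UB and 142 CPM in CON, and Cxcl2, which draws neutrophils, had 153 CPM in UB and 91.3 CPM in CON. Ccl17 rested on a single cell, which held 72% of the UB UMIs. Ccl5 had 210.1 CPM in UB and 472 CPM in CON, with 51.5% of the UB and 46.8% of the CON UMIs in 1 cell each, so neither chemokine describes the set. The chemokine receptor Ccr1, at 44.6 CPM in UB and 93.8 CPM in CON, was past 1.5-fold lower, and the monocyte and dendritic precursor receptor Ccr2, at 146 CPM in UB and 109 CPM in CON, was not past it in either direction. Cytokine genes and pattern recognition receptors had 3 tested genes each, none past 1.5-fold.

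Markers of B cells, neutrophils, endothelial cells, fibroblasts and tumour or epithelial cells were sparse. B cell markers gave 41.4 CPM in UB and 114 CPM in CON, nearly all of it Ighm, with Cd79a at 0 in both. Neutrophil markers gave 6.37 CPM in UB and 17.8 CPM in CON, endothelial markers 6.37 CPM in UB and 30.4 CPM in CON, fibroblast markers 73.2 CPM in UB and 68.5 CPM in CON, and tumour or epithelial markers 73.2 CPM in UB and 63.4 CPM in CON. Without Cdkn2a, one of the rule's genes, the tumour or epithelial markers gave 7 UMIs (22.3 CPM) in UB and 2 UMIs (5.07 CPM) in CON. Monocyte markers were not sparse, at 2187 CPM in UB and 4607 CPM in CON. Plasmacytoid dendritic markers gave 232 CPM in UB and 581 CPM in CON. On the Xcr1/Clec9a side they stood at 393 CPM in UB and 1116 CPM in CON. On the Cd209a side they stood at 83.3 CPM in UB and 158 CPM in CON. Without the cells carrying Ly6c2 or Fcgr1, the Xcr1/Clec9a side gave 60 UMIs of these markers in UB and 0 in CON. RNA quality differed beside these results. Of 4 such genes, 3 were at least 1.5-fold lower in UB, where 13.8% of all genes were. The ribosomal repeat Gm42418 had 2842 CPM in UB and 7158 CPM in CON. Lars2 had 57.3 CPM in UB and 218 CPM in CON, and Neat1 289.6 CPM in UB and 439 CPM in CON. Mitochondrial UMIs made up a median of 2.38% in both libraries. Of 17 tested genes of the dissociation stress response, the median log2 ratio was 0.04. The part of RNA quality in the results above was not tested.

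Set against mature dendritic cells, the gated cells lacked genes of the mature state that the rule did not name. Of 2712 genes tested, 220 (8.11%) were at least 2-fold lower and 159 (5.86%) at least 2-fold higher than in mature cells in both libraries. Il12b, a subunit of the T cell-polarising cytokine IL-12, gave 0 UMIs in the gated cells of either library and stood at 348 CPM in UB and 546 CPM in CON mature cells. Socs2, a feedback inhibitor of cytokine signals, had 3.18 CPM in UB gated cells against 406 CPM in UB mature cells, and 2.54 CPM against 306 CPM in CON. Mpeg1, the pore-forming perforin-2 of phagocytes, ran the other way, at 239 CPM against 29.0 CPM in UB and 281 CPM against 41.4 CPM in CON. Since the mature gate was drawn on cells of the same libraries, these values describe the gates and were not tested.

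Set against C1q-rich MHC class II-high cells, 699 of 8447 genes (8.28%) were at least 2-fold lower and 214 (2.53%) at least 2-fold higher in the gated cells of both libraries. Ms4a7, a membrane protein of macrophages, had 3.18 CPM in UB gated cells against 753 CPM in UB C1q-rich cells, and 12.7 CPM against 1099 CPM in CON. Sept3, a septin found in type 1 cells, had 115 CPM against 1.31 CPM in UB and 73.5 CPM against 0.284 CPM in CON. Against plasmacytoid cells, 177 of 2085 genes (8.49%) were at least 2-fold higher and 163 (7.82%) at least 2-fold lower in both libraries. The plasmacytoid lectin Siglech had 25.5 CPM against 1892 CPM in UB and 45.6 CPM against 1681 CPM in CON. Il1b, the inflammatory cytokine, had 1445 CPM in UB gated cells against 0 in UB plasmacytoid cells, and 1769.9 CPM against 9.72 CPM in CON.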

How the data were processed

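Each library was deposited by the authors as a matrix of UMI counts over 31053 genes by cell barcode, without normalization; per the file headers the matrix writer was version 3.1.0, and per the submitters' processing notes Cell Ranger, STAR and build mm10 were used. Cells were filtered and gated by the thresholds given above. UMIs were summed over cells of a gate in each library and divided by the gate's total to give CPM. With 1 library per group there was no test; ratios carry exact conditional binomial intervals, shares Clopper-Pearson intervals and differences of shares Newcombe-Wilson intervals, all at 95%, and a count of 0 was bounded by 3 counts. Depth per gated cell limits precision: the 50-UMI minimum leaves most genes unread. Thinning drew 2000 UMIs per cell and left out shallower cells, 1 UB and 1 CON.

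Genes named between libraries had 50 or more summed UMIs, 50 or more CPM in at least 1 library, a ratio of at least 1.5 with an interval excluding 1, and at least 20% of their highest level in any other gate; rule genes, Xist, Y-linked, mitochondrial, ribosomal and provisional names were left out. Members of the gene lists were named besides, and genes between gates by ratios of at least 2 in both libraries. The cells, the lists and the rules were chosen with earlier results of these data known. Doublets were called with Scrublet in scanpy 1.11.5 (numpy 2.4.6, scipy 1.17.1, pandas 2.3.3), and none were removed. Promoters came from RefSeq (GRCm38.p6). Some genes are not reported here.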

Additional observations from a re-analysis of the deposited data

Results flagged for a closer look

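The genes Cxcl10, Gpr183 and Hspa1a had opposite directions on the sides of the gated dendritic cells, at counts of at least 20 UMIs on each side or ratios of at least 1.5 both ways, and the difference between sides was not tested. Cxcl10, the interferon-inducible chemokine, had 103 CPM in UB and 74.9 CPM in CON on the Xcr1/Clec9a side, a log2 ratio of 0.46, and 34.7 CPM in UB and 835 CPM in CON on the Cd209a side, a log2 ratio of −4.59. It gave 16 UB and 10 CON UMIs on the first side, and the counting interval of that ratio, 0.587-fold to 3.39-fold, included 1. Gpr183 is a receptor for oxysterols that guides dendritic cells in lymphoid tissue. On the Xcr1/Clec9a side it had 109 CPM in UB and 52.4 CPM in CON, a log2 ratio of 1.06. On the Cd209a side it had 62.4 CPM in UB and 114 CPM in CON, a log2 ratio of −0.87. Few UMIs lay behind these Gpr183 levels, and no interval is given for them here. Hspa1a, a heat shock protein induced by tissue dissociation, had 174 CPM in UB and 52.4 CPM in CON on the Xcr1/Clec9a side, a log2 ratio of 1.73, and 41.6 CPM in UB and 105 CPM in CON on the Cd209a side, a log2 ratio of −1.34; 31.4% of its UB UMIs came from 1 cell.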

How the results depend on the processing

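No paired analysis was possible because each group is 1 library, and for the same reason no replicate could be left out. Against 238 genes at least 1.5-fold lower in UB and 145 genes at least 1.5-fold higher in UB, they were 118 and 77 with cells thinned before gating, 369 and 251 with a marker minimum of 1 UMI, 142 and 91 without cells carrying markers of other types, 1002 and 1088 at a minimum of 10 summed UMIs, 109 and 41 at a minimum of 100, and 2701 and 3364 with no filter. Without the cells carrying Ly6c2 or Fcgr1, an alternative chosen after the values were seen, they were 79 and 75. The same alternative took out more CON than UB cells by its choice of genes. With 46 UB cells (0.338%) and 16 CON cells (0.111%) left, the difference in the share of all cells was 0.226 points. The lectin list's median was −1.02 as reported, 0.24 at a minimum of 10 summed UMIs and 0.27 with no filter. Over the alternatives in which they could be computed, the medians ranged from −2.88 to −2.03 for the type I interferon list, from 2.01 to 2.96 for G2/M genes and from 0.30 to 0.96 for type 1 genes, Irf7 from −5.29 to −3.80, and the difference in the Xcr1/Clec9a side's share from 3.80 to 30.1 points. The interferon gamma list's median, over 3 tested genes, was −2.96 as reported and ranged from −3.14 to −0.78. With no filter on low counts the median of all genes was 0.18, against 0.01 as reported; the other scalings moved it by under 0.1.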

Other observations

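Several further gene lists gave few genes past 1.5-fold between UB and CON gated dendritic cells. The 11 tested glycolysis genes had a median log2 ratio of 0.19, with Gpi1, a glycolytic isomerase, past 1.5-fold at 289.6 CPM in UB and 172 CPM in CON. Cholesterol synthesis genes had a median of 0.01 over 3 tested genes. The 8 tested NF-kB genes had a median of 0.20, with the inhibitor Nfkbie lower at 50.9 CPM in UB and 98.9 CPM in CON. Of 3 tested genes of the FAT10 pathway, the autophagy receptor Sqstm1 was past 1.5-fold lower, at 127 CPM in UB and 198 CPM in CON. The 7 pan-dendritic genes had a median of −0.12, with 0 past 1.5-fold. Of 5 tested lectin and uptake receptor genes, with a median of −1.02, 3 were past 1.5-fold lower in UB, where 13.8% of all genes were. These were Fcgr1, Clec4n, which senses fungi, at 50.9 CPM in UB and 109 CPM in CON, and Fcer1g, the signalling chain of Fc receptors, which had 1085 CPM in UB and 2198 CPM in CON.

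Kit, the stem cell factor receptor, gave 22 UMIs (70.0 CPM) in UB and 8 UMIs (20.3 CPM) in CON, under the minimum for a tested gene.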
